A study of Mus musculus with 10 samples.

Results

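The genes described here are the IL-6 family cytokines, their receptor chains and the JAK and STAT3 proteins that carry their signal. The group was fixed by symbol as 10 genes, namely the ligands *Il6* and *Lif*, the receptor chains *Il6st* (gp130), *Il6ra*, *Lifr* and *Osmr*, the kinases *Jak1* and *Jak2*, the transcription factor *Stat3* and the feedback inhibitor *Socs3*. Of these 10, 9 were found among the 15900 genes of the expression table and all 9 passed the filter on low values, which left 15851 genes in all. *Il6st* was not analysed here. Expression was measured by cap analysis of gene expression (CAGE), which captures and counts the capped 5′ ends of RNA, in the whole hippocampus of male ICR mice that were 9 to 10 weeks old at injection. Status epilepticus (SE) was induced with the muscarinic agonist pilocarpine (PILO, 290 mg/kg i.p.) after methyl scopolamine (1 mg/kg), was defined by 5 generalized convulsive seizures, and was terminated with diazepam (DZP, 10 mg/kg). There were 5 groups of 2 mice, 10 mice in all. The pre-SE mice are labelled untreated, and by the study's methods control mice received saline in place of PILO. The SE 6 h and SE 2 days mice had SE and were sampled at those times after it. The SE + LEV 6 h and SE + LEV 2 days mice were also given the antiepileptic drug levetiracetam (LEV, 360 mg/kg, oral), 1 time and 5 times respectively. Whether the SE mice without LEV received a vehicle is not given in the sources used here.

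IL-6, LIF and oncostatin M act through receptors that share the signalling chain gp130. In each receptor gp130 works beside a partner chain (IL-6Rα for IL-6, LIFR for LIF, and OSMR for oncostatin M). The gp130-bound Janus kinases then phosphorylate STAT3, which enters the nucleus and activates genes that include *Socs3*, whose product inhibits the receptor and its kinases. In the brain the pathway is known for its part in the reactive state of astrocytes, in microglial responses and in inflammation after injury.

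The libraries held 10540698 to 51710968 CAGE tags, as inferred from the steps of the CPM values, so that 3 tags corresponded to 0.058 to 0.285 CPM (tags scaled to a common library size), and a level below that is not told apart from 0. The labelled tissue was present, with all 9 markers of hippocampal neurons in the table and a summed level of 2487 to 4357 CPM in every mouse. Markers of the choroid plexus, which borders the hippocampus, varied between mice of the same group. Their sum was 12.1 and 1696 CPM in the pre-SE mice, 8.21 and 3985 CPM in the SE 6 h mice, 858 and 38.9 CPM in the SE + LEV 6 h mice, 65.4 and 21.8 CPM in the SE 2 days mice, and 1499 and 25.8 CPM in the SE + LEV 2 days mice. The mouse of each group that was richer in these markers was also the higher for *Socs3* and *Jak1* in 5 of 5 groups and for *Jak2* in 0 of 5. For *Lif* and *Il6ra* it was the higher in 4 of 5, for *Osmr* and *Stat3* in 3 of 5, for *Lifr* in 2 of 5 and for *Il6* in 2 of 4. Whether these counts differ from those of other genes was not tested. The part of choroid plexus tissue in the results was not tested beyond a fit with its marker sum as a covariate, which was added after the data were seen and is given beside the results it changed.

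The ligands, the OSM receptor chain, *Stat3* and *Socs3* were the genes of the group that rose after SE. At 6 h, *Il6*, *Lif*, *Osmr* and *Socs3* were higher than in pre-SE mice, 4 of 9 genes against 2.76% of all genes tested (limma on log2(CPM + 0.1), Benjamini-Hochberg adjusted p at most 0.05). At 2 days the same 4 genes and *Stat3* were higher, 5 of 9 against 5.07% of all genes. None of the 9 was lower at either time, where 0.202% and 0.593% of all genes were. Both SE mice lay above both pre-SE mice in 7 of 9 genes at 6 h and in 7 of 9 at 2 days, against 18.6% and 26.3% of all genes. The median logFC of the 9 genes was 1.40 at 6 h and 2.18 at 2 days, and that of all genes was -0.13 and -0.03. With the choroid plexus covariate, *Il6ra*, *Stat3* and *Jak2* were also higher at 6 h and 7 of 9 genes were called. That fit called 541 of 15851 genes higher at 6 h, against 437 without the covariate. Hippocampal RNA was measured in bulk, so more cells of a type and more RNA per cell cannot be told apart in any of these values. With 2 mice per group, an exact permutation test of a single gene cannot give a two-sided p below 0.333, so every call rests on a spread estimated across genes. P-values set a difference against that spread between mice, pooled over the 5 groups.

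**Figure D1:**
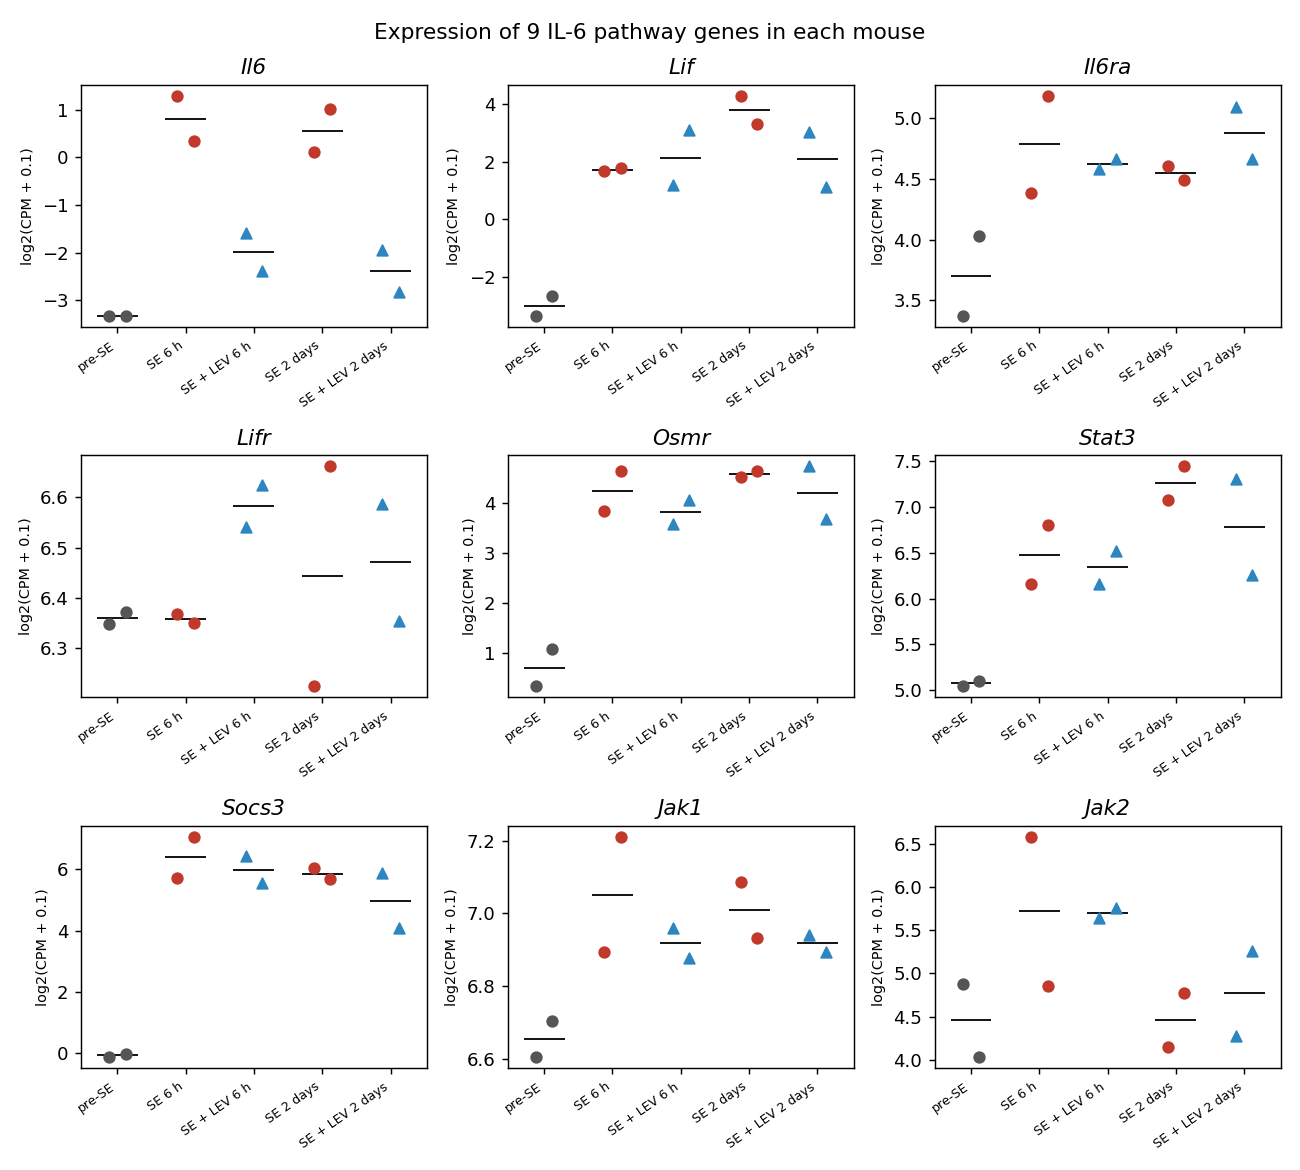
Expression of the 9 genes on the log2(CPM + 0.1) scale (vertical axes, a separate range for each gene) in the 2 mice of each of the 5 groups (horizontal axes). Points are mice (grey, pre-SE, red, SE, blue triangles, SE + LEV) and bars are group means. In all genes except *Lifr* and *Jak2*, every SE and SE + LEV mouse lies above both pre-SE mice. *Lifr* spans 74.6 to 101 CPM over all mice.

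*Il6* (ENSMUSG00000025746, mm9 chr5:30339701-30346508, + strand) encodes interleukin-6, the founding ligand of the family. No tag of *Il6* was counted in either pre-SE mouse. Its level was 2.34 and 1.16 CPM in the SE 6 h mice and 0.98 and 1.91 CPM in the SE 2 days mice, from 73, 17, 23 and 40 tags. The level of *Il6* in both SE groups lay above the pre-SE mice, and the 2 time points overlapped each other. Against the floor of 3 tags per library, the rise of *Il6* was at least 21.7-fold at 6 h and at least 17.9-fold at 2 days. The logFC was 4.13 ± 0.56 (SE of the estimate, limma adjusted p = 0.0049) at 6 h and 3.88 ± 0.56 (adjusted p = 0.0035) at 2 days, on a scale where a gene at 0 depends on the pseudocount.

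*Lif* (ENSMUSG00000034394, mm9 chr11:4157560-4172517, + strand) encodes leukemia inhibitory factor, the ligand of LIFR and gp130. Its level was 0 and 0.06 CPM in the pre-SE mice, 3 tags in all. It was 3.08 and 3.29 CPM in the SE 6 h mice and 19.16 and 9.79 CPM in the SE 2 days mice. The 3 groups did not overlap, with both SE 2 days mice above both SE 6 h mice. The ratio of tag counts to pre-SE mice was 84.6 at 6 h (95% exact binomial interval 28.4 to 415) and 397 at 2 days (135 to 1930), where the intervals cover counting error only. The logFC of *Lif* was 4.70 ± 0.72 at 6 h (limma adjusted p = 0.0085) and 6.77 ± 0.72 at 2 days (adjusted p = 0.0013). The call at 6 h was lost without pre-SE replicate 1 (adjusted p = 0.063), without SE 6 h replicate 1 (0.051) and without SE 6 h replicate 2 (0.071), and with a pseudocount of 0.5 (0.0523) or 1 (0.119), and the call at 2 days was kept under every alternative (adjusted p at most 0.0138).

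The sequences before the transcription start of both ligand genes are shown because *Il6* and *Lif* rose together from almost no tags. They are the 250 bases upstream of *Il6* (mm9 chr5:30339404-30339653, + strand) and the 239 bases that precede the first annotated exon of *Lif* (mm9 chr11:4157321-4157559, + strand), from the RefSeq promoter table built on GRCm38.p6 and found unchanged in mm9. Capitals mark matches to AP-1 (TGANTCA) and NF-kB (GGG and TTTCC separated by any 2 bases) motifs.
Il6: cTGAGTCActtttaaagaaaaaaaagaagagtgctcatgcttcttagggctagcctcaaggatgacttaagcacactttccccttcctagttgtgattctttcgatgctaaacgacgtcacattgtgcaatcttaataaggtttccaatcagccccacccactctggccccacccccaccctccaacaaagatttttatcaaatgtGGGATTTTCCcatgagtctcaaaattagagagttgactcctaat
Lif: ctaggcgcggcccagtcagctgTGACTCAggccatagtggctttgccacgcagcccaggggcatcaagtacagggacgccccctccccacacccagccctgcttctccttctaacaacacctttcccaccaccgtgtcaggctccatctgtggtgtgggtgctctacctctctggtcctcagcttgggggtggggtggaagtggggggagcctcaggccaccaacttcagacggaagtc
The AP-1 match lay at bases -249 to -243 in *Il6* and -228 to -222 in *Lif*, and the NF-kB match at -44 to -35 in *Il6*, counted from the RefSeq start. Searched on both strands, 6.75% of 32851 mouse promoters of 250 bases held the AP-1 motif, 1.41% the NF-kB motif and 7.02% a STAT motif (TTCNNNGAA). Neither ligand's window held the STAT letters, and a match is a description of the letters, not of binding.

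Among the 10 other ligands and ligand subunits of the family that were listed, 5 were in the table, and 2 of them rose at both times after SE, beside 2.76% of all genes at 6 h and 5.07% at 2 days. *Osm*, which encodes oncostatin M, had 0 tags in both pre-SE mice. It was at 2.12 and 1.44 CPM in the SE 6 h mice and 1.14 and 0.53 CPM in the SE 2 days mice, at least 22.1-fold and at least 10.3-fold higher than pre-SE (logFC 4.21 and 3.14, limma adjusted p = 0.0159 and 0.0375). *Clcf1*, which encodes cardiotrophin-like cytokine factor 1, was at 0.03 and 0.10 CPM before SE, 2.95 and 3.63 CPM at 6 h and 13.65 and 19.63 CPM at 2 days, with no overlap between these groups. Its logFC was 4.39 (limma adjusted p = 0.035) at 6 h and 6.67 (adjusted p = 0.0032) at 2 days. The calls of *Osm* at both times and of *Clcf1* at 6 h were lost whenever any 1 pre-SE mouse or SE mouse of that time was left out. *Cntf* and *Ctf1* did not pass the test at either time, and *Cntf*, which encodes ciliary neurotrophic factor, had a logFC of 1.72 at 2 days (adjusted p = 0.072).

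The receptor chains did not move as 1 block. *Osmr* (ENSMUSG00000022146, mm9 chr15:6763577-6824313, - strand), which encodes the chain that pairs with gp130 to bind oncostatin M, was at 1.17 and 2.01 CPM in the pre-SE mice. It was at 14.1 and 24.7 CPM in the SE 6 h mice and 22.9 and 24.8 CPM in the SE 2 days mice. All 4 SE mice were above both pre-SE mice, and the 2 times overlapped. The logFC of *Osmr* was 3.52 ± 0.43 at 6 h (limma adjusted p = 0.0031) and 3.87 ± 0.43 at 2 days (adjusted p = 0.0013), and both calls held in every alternative (adjusted p at most 0.0344 and 0.0161).

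*Il6ra* (ENSMUSG00000027947, mm9 chr3:89673246-89717084, - strand), which encodes the IL-6-binding chain, was at 10.3 and 16.2 CPM in the pre-SE mice, 20.8 and 36.3 CPM in the SE 6 h mice and 24.3 and 22.5 CPM in the SE 2 days mice. Every SE mouse was above both pre-SE mice, but the logFC did not pass the test at 6 h (1.08 ± 0.33, limma adjusted p = 0.131) or at 2 days (0.85 ± 0.33, adjusted p = 0.187). With the choroid plexus covariate it passed at both times (adjusted p = 0.0486 and 0.0407). At 2 days that fit called 1105 of 15851 genes higher, against 803 without the covariate.

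*Lifr* (ENSMUSG00000054263, mm9 chr15:7079559-7147489, + strand), which encodes the LIF-binding chain, was at 81.3 and 82.7 CPM before SE and 82.4 and 81.4 CPM at 6 h. It was at 74.6 and 101 CPM at 2 days. The groups overlapped at both times. The logFC was -0.0017 (95% interval -0.48 to 0.48) at 6 h and 0.08 (-0.40 to 0.56) at 2 days, so a change of the size seen in *Osmr* lay outside the interval. Rescaling by median of ratios, which moved the median logFC of all genes at 6 h from -0.13 to -0.0045, gave 0.13 for *Lifr* at 6 h. Of the 4 other receptor chains listed, *Il11ra1* and *Il27ra* were tested and neither passed at either time.

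The 2 receptor-bound kinases did not pass the test at either time. *Jak1* (ENSMUSG00000028530, mm9 chr4:100824972-100937887, - strand) was at 97.3 and 104 CPM in the pre-SE mice, 119 and 148 CPM in the SE 6 h mice and 136 and 122 CPM in the SE 2 days mice. Both SE groups lay above the pre-SE mice, and the logFC was 0.40 (95% interval -0.05 to 0.85, limma adjusted p = 0.335) at 6 h and 0.36 (-0.09 to 0.80, adjusted p = 0.376) at 2 days. The annotated gene overlaps *Gm12785* on the same strand and *Raver2* on the other, and how clusters were assigned to genes is not given in the sources used here, so its tags are uncertain.

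*Jak2* (ENSMUSG00000024789, mm9 chr19:29326318-29387570, + strand) was at 29.3 and 16.3 CPM before SE, 95.6 and 28.9 CPM at 6 h and 17.6 and 27.2 CPM at 2 days. Of the SE mice, only SE 6 h replicate 1 stood clear of the pre-SE mice, and the groups overlapped at both times. The logFC was 1.26 ± 0.54 at 6 h (limma adjusted p = 0.258) and 0.0015 ± 0.54 at 2 days. With the choroid plexus covariate the logFC at 6 h was 1.31 (adjusted p = 0.0299). Without SE 6 h replicate 1 it was 0.40.

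*Stat3* (ENSMUSG00000004040, mm9 chr11:100746412-100800854, - strand) was at 32.9 and 34.3 CPM in the pre-SE mice, 71.3 and 111 CPM in the SE 6 h mice and 135 and 174 CPM in the SE 2 days mice. The 3 groups did not overlap, and the mean was 33.6 ± 0.99, 91.3 ± 28.3 and 154 ± 27.5 CPM (SD, n = 2). The logFC was 1.40 ± 0.35 at 6 h, which missed the threshold (limma adjusted p = 0.0657), and 2.18 ± 0.35 at 2 days, which passed (adjusted p = 0.0056). The call at 2 days was lost without SE 2 days replicate 2 (adjusted p = 0.073), and the value at 6 h passed with the choroid plexus covariate (adjusted p = 0.0368) and without either SE + LEV 2 days mouse (0.0213 and 0.0212). *Stat3* overlaps *Stat5a* on the other strand, and whether the counting used strand is not given in the sources used here.

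Of 8 other Janus kinases and STATs listed, 5 were tested. None passed at 6 h, where 1 reached an unadjusted p under 0.05 upward (9.21% of all genes did), and *Jak3* and *Stat2* were higher at 2 days (5.07% of all genes were). *Jak3*, the kinase of common gamma chain receptors, was at 2.86 and 2.44 CPM before SE, 5.74 and 7.61 CPM at 6 h and 12.4 and 11.2 CPM at 2 days (logFC 1.29, limma adjusted p = 0.060, and 2.12, adjusted p = 0.0040). The 6 h value of *Jak3* passed with median-of-ratios rescaling (adjusted p = 0.0358) and with no mean-variance trend (0.0429). *Stat2*, a mediator of type I interferon signalling, was at 11.7 and 12.5 CPM before SE, 10.04 and 9.66 CPM at 6 h and 50.2 and 26.2 CPM at 2 days (logFC 1.58, adjusted p = 0.0351). The call of *Stat2* was lost without either pre-SE mouse (adjusted p = 0.185 and 0.118), without SE 2 days replicate 1 (0.158), and without either SE 6 h mouse (0.053). The median logFC of the 5 was 0.20 at 6 h and 1.58 at 2 days.

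*Socs3* (ENSMUSG00000053113, mm9 chr11:117827393-117831361, - strand), the feedback inhibitor that STAT3 induces, had the highest logFC of the 9 genes at 6 h. It was at 0.83 and 0.89 CPM in the pre-SE mice, 53.1 and 133 CPM in the SE 6 h mice and 65.9 and 51.4 CPM in the SE 2 days mice. All 4 SE mice lay above both pre-SE mice, and the 2 times overlapped. The logFC was 6.46 ± 0.58 at 6 h (limma adjusted p = 0.0014) and 5.92 ± 0.58 at 2 days (adjusted p = 0.00095), and both calls were kept in every alternative (adjusted p at most 0.0133 and 0.0130). The mice of a group differed by 2.52-fold at 6 h, with the higher value in the mouse richer in choroid plexus markers.

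*Socs3* was the 1 gene of the 9 whose window held the STAT motif, and the 30 bases around the match (mm9 chr11:117830815-117830844, - strand, RefSeq) are shown for that reason, with the motif in capitals.
Socs3: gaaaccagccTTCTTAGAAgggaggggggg
The match lay at bases -154 to -146 from the RefSeq start, a motif that 7.02% of all promoters held. The 30 bases lie inside the annotated span of *Socs3* given above, which starts upstream of the RefSeq start. Of the 250 bases of the window, 77 are in annotated exons of *Socs3*. No AP-1, NF-kB or STAT match was found in the windows of the other 6 genes, which says only that those letters are not in 250 bases.

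The other 12 negative regulators tested, which are SOCS family members, tyrosine phosphatases and PIAS proteins, stayed closer to their pre-SE level. None passed at 6 h, where an unadjusted p under 0.05 was reached upward by 2 genes and downward by 1, beside 9.21% and 8.51% of all genes. At 2 days *Ptpn6* and *Socs1* were higher, 2 of 12 against 5.07% of all genes. *Ptpn6*, which encodes the phosphatase SHP-1, was at 3.38 and 3.52 CPM before SE, 3.72 and 1.99 CPM at 6 h and 20.5 and 25.4 CPM at 2 days (logFC 2.69, limma adjusted p = 0.0059). The call was lost without SE 2 days replicate 2 (adjusted p = 0.073). *Socs1*, an inhibitor of interferon receptor signalling, was at 1.86 and 1.76 CPM before SE, 5.0 and 7.26 CPM at 6 h and 8.99 and 8.17 CPM at 2 days (logFC 2.18, adjusted p = 0.0397), a call lost without any 1 pre-SE, SE 6 h or SE 2 days mouse (adjusted p 0.055 to 0.211). The median logFC of the 12 was -0.06 at 6 h and 0.16 at 2 days.

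**Figure D2:**
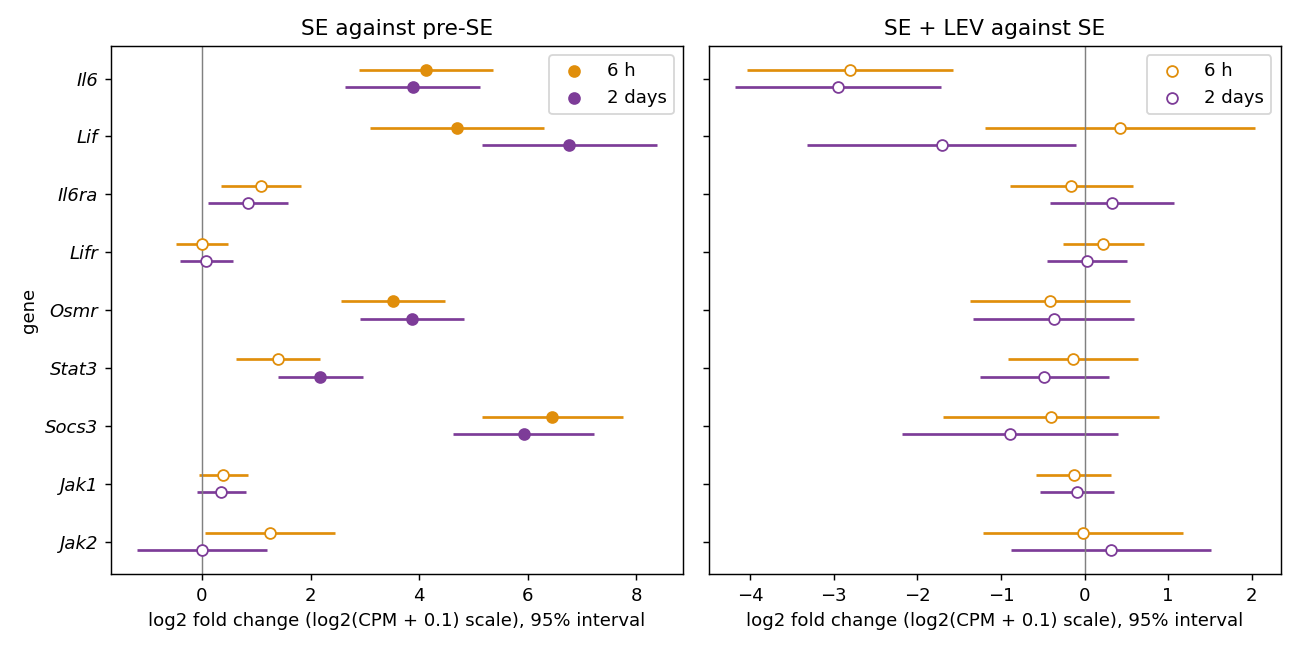
logFC of the 9 genes with 95% intervals from the limma fit, for SE against pre-SE mice (left) and SE + LEV against SE mice (right), at 6 h (orange) and 2 days (purple), 2 mice per group. Filled points passed an adjusted p of 0.05 (4 at 6 h and 5 at 2 days on the left, none on the right); *Il6* lies lowest on the right at -2.81 and -2.95.

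Genes known as STAT3 targets were described as a list of 22, all of them tested. Many of these genes also answer to other factors, and *Fos* and *Junb* are immediate early genes of neuronal activity. At 6 h 12 of the 22 were higher in SE than in pre-SE mice and at 2 days 14 were, with none lower, beside 2.76% and 5.07% of all genes called higher. The median logFC of the list was 2.27 at 6 h and 2.70 at 2 days. The counts of targets varied with the mouse left out. Over all genes, too, fewer were called higher without a pre-SE mouse or an SE mouse of the time compared. The 6 h count was 4 to 15 when a mouse was left out, lowest without SE 6 h replicate 2, with 5 without either pre-SE mouse and 7 without SE 6 h replicate 1. The 2 days count was 8 to 19, with 8 without SE 2 days replicate 2 and 9 without pre-SE replicate 1. Among the targets described next, *Lcn2*, *Pim1* and *Vim* lost their 6 h call without any 1 pre-SE or SE 6 h mouse (adjusted p 0.0544 to 0.110), *Timp1* lost its 6 h call without SE 6 h replicate 2 (0.0578), *Fos* its 2 days call without SE 2 days replicate 2 (0.0599), and *Pim1* its 2 days call without either pre-SE mouse or SE 2 days replicate 2 (0.103 to 0.272).

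The targets with the highest logFC at 6 h were *Timp1*, *Fos*, *Lcn2*, *Bcl3* and *Pim1*. *Timp1*, an inhibitor of metalloproteinases, was at 0.17 and 0.19 CPM before SE, 14.8 and 13.8 CPM at 6 h and 59.6 and 232 CPM at 2 days (logFC 5.69, limma adjusted p = 0.0071, and 8.72, adjusted p = 0.00092). *Lcn2*, which encodes the secreted lipocalin-2 of reactive astrocytes, was at 0.24 and 0.27 CPM before SE, 9.81 and 14.7 CPM at 6 h and 20.6 and 30.1 CPM at 2 days (logFC 5.09, adjusted p = 0.0123, and 6.14, adjusted p = 0.0030). *Bcl3*, a nuclear IκB protein, was at 0.31 and 0.17 CPM before SE, 7.89 and 9.18 CPM at 6 h and 22.5 and 27.9 CPM at 2 days (logFC 4.69, adjusted p = 0.0026, and 6.24, adjusted p = 0.00073). These 3 targets were without overlap between pre-SE, 6 h and 2 days, each step being upward. *Fos* was at 4.0 and 9.98 CPM before SE, 276 and 228 CPM at 6 h and 72.9 and 85.6 CPM at 2 days, so that its 2 days mice lay below its 6 h mice (logFC 5.29 and 3.62, adjusted p = 0.0023 and 0.0050). *Pim1*, a survival kinase, was at 2.83 and 2.11 CPM before SE, 77.0 and 29.2 CPM at 6 h and 16.2 and 46.4 CPM at 2 days (logFC 4.22 and 3.44, adjusted p = 0.017 and 0.028).

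*Steap4*, *Myc*, *Vim*, *Il4ra*, *Icam1*, *Mcl1* and *Junb* were the other targets higher at 6 h. *Steap4* was called from 3 tags in the pre-SE mice, with a tag ratio of 49.4 (95% exact binomial interval 16.3 to 244). At 6 h the *Steap4* call was lost with a pseudocount of 0.5 or 1 (limma adjusted p = 0.0551 and 0.0634). It was also lost with a filter of 1 CPM (0.0529) and with no mean-variance trend (0.0607). *Junb* lost its 6 h call with no trend (0.0553), and *Il4ra* with only the groups compared (0.0649). *Steap4* and *Junb* lost it without any 1 pre-SE or SE 6 h mouse. *Il4ra* and *Icam1* lost it without either pre-SE mouse or SE 6 h replicate 2. At 2 days *Steap4* did not pass, and it did with the choroid plexus covariate (limma adjusted p = 0.0112), with only the groups compared (0.0151) and without either SE + LEV 2 days mouse (0.0399 and 0.0388). At 2 days the 5 with the highest logFC were *Timp1*, *Bcl3*, *Lcn2*, *Cd44* and *Vim*. *Cd44*, a hyaluronan receptor, was at 3.10 and 3.15 CPM before SE, 14.6 and 11.5 CPM at 6 h and 85.3 and 159 CPM at 2 days (logFC 2.02, limma adjusted p = 0.15, and 5.18, adjusted p = 0.0020). *Vim*, an intermediate filament gene of reactive glia, was at 18.9 and 14.7 CPM before SE, 90.7 and 90.8 CPM at 6 h and 368 and 737 CPM at 2 days (logFC 2.44, adjusted p = 0.0140, and 4.96, adjusted p = 0.00073). *Gfap*, the astrocyte filament gene, which is also on the astrocyte marker list, was at 246 and 230 CPM before SE, 394 and 783 CPM at 6 h and 2282 and 3642 CPM at 2 days (logFC 1.22, adjusted p = 0.11, and 3.60, adjusted p = 0.00095). *Hif1a* and *Bcl2l1* did not pass at either time and overlapped the pre-SE mice at both.

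**Figure D3:**
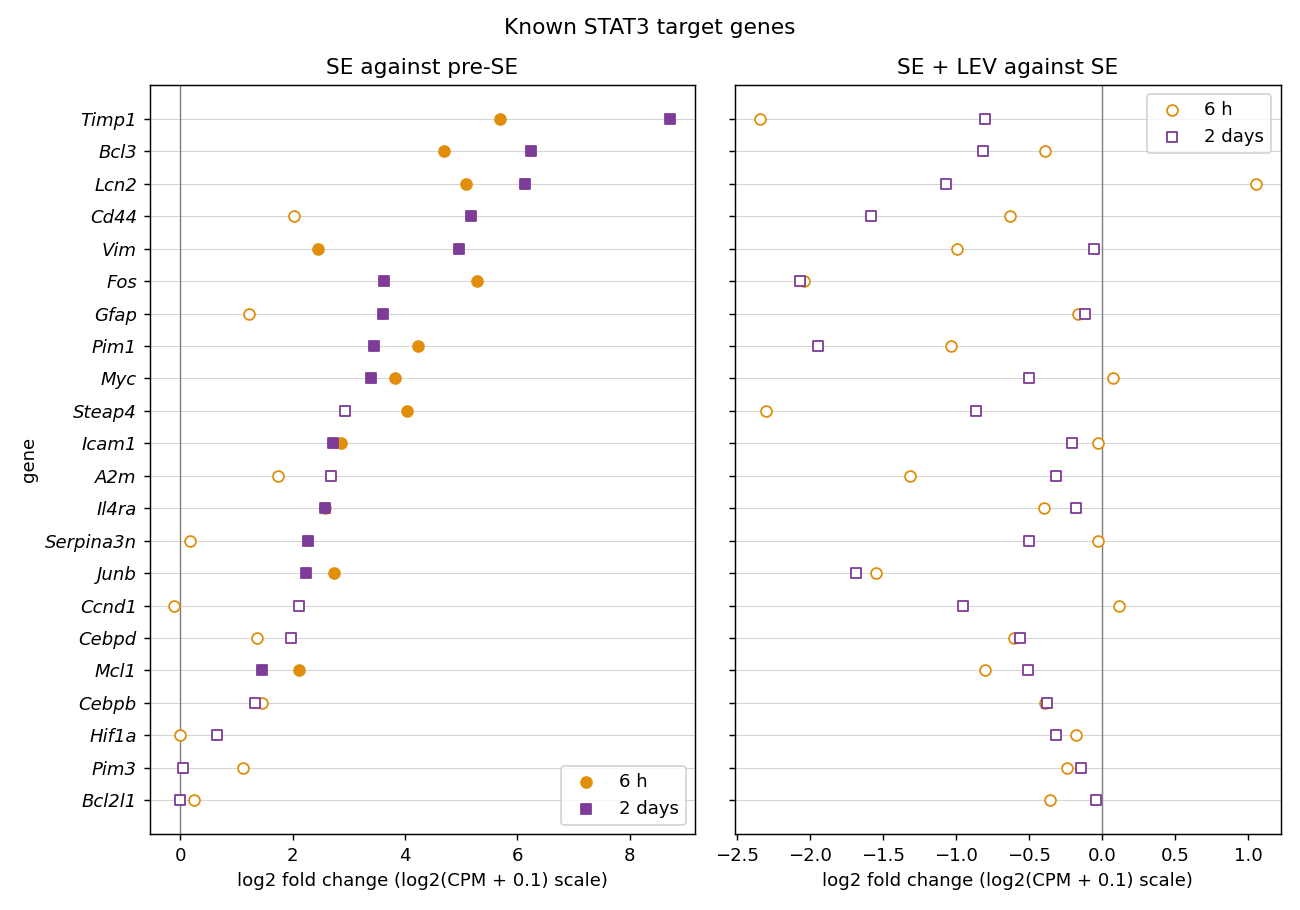
logFC on the log2(CPM + 0.1) scale of the 22 STAT3 target genes, ordered by their value at 2 days, for SE against pre-SE mice (left) and SE + LEV against SE mice (right), at 6 h (orange circles) and 2 days (purple squares). Filled symbols passed an adjusted p of 0.05, 12 at 6 h and 14 at 2 days on the left and none on the right.

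The comparison of SE + LEV with SE mice asked how the drug bears on these genes, and *Il6* was the gene with the lowest estimate at both times. None of the 9 genes passed the adjusted threshold in either direction at 6 h or 2 days, and of all genes 0.0% were called higher and 0.0126% lower at 6 h, and 0.0% and 0.0% at 2 days. At an unadjusted p under 0.05, 1 of the 9 was lower at 6 h (*Il6*) and 2 were lower at 2 days (*Il6* and *Lif*), against 3.42% and 1.39% of all genes, and none was higher, against 1.16% and 1.31%. The SE mice are shared with the SE against pre-SE comparison, so the 2 sets of fold changes are not independent of each other.

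*Il6* was at 0.23 and 0.09 CPM in the SE + LEV 6 h mice and 0.16 and 0.04 CPM in the SE + LEV 2 days mice, from 7, 1, 7 and 1 tags. At both times both SE + LEV mice lay below both SE mice and, with at least 1 tag, above the pre-SE mice with none. The replicate 2 value of each was below the 3-tag floor of its library (0.285 and 0.123 CPM). The logFC to SE mice was -2.81 ± 0.56 at 6 h (limma adjusted p = 0.194, range over alternatives 0.126 to 1.0) and -2.95 ± 0.56 at 2 days (adjusted p = 1.0, range 0.228 to 1.0). Against pre-SE mice, *Il6* in SE + LEV mice did not pass the test at 6 h or 2 days (limma adjusted p = 0.485 and 0.669).

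*Lif* was at 2.19 and 8.35 CPM in the SE + LEV 6 h mice, on both sides of the SE 6 h mice, and at 8.05 and 2.09 CPM in the SE + LEV 2 days mice, below both SE 2 days mice. Its logFC to SE mice was 0.42 (95% interval -1.19 to 2.03) at 6 h and -1.71 (-3.32 to -0.10, limma adjusted p = 1.0) at 2 days. The difference between these 2 LEV effects was -2.13 ± 1.02 (interaction in the same limma fit, adjusted p = 1.0). In none of the 9 genes did the LEV effect differ between the times at an adjusted p of 0.05 (0.0% of all genes higher and 0.0% lower) or at an unadjusted p under 0.05 (1.58% and 0.795%).

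*Socs3* was at 87.2 and 46.5 CPM in the SE + LEV 6 h mice and 58.3 and 16.8 CPM in the SE + LEV 2 days mice. *Osmr* was at 11.8 and 16.6 CPM in the SE + LEV 6 h mice and 26.5 and 12.8 CPM in the SE + LEV 2 days mice. *Stat3* was at 71.2 and 91.8 CPM at 6 h and 158 and 76.4 CPM at 2 days with LEV. In these 3 genes the SE + LEV mice overlapped the SE mice at both times, and the lower value at 2 days came each time from SE + LEV 2 days replicate 2. The logFC of *Socs3* was -0.40 (95% interval -1.69 to 0.89) at 6 h and -0.89 (-2.18 to 0.40) at 2 days. That of *Osmr* was -0.42 (-1.38 to 0.55) and -0.37 (-1.33 to 0.59), and that of *Stat3* was -0.14 (-0.91 to 0.64) and -0.48 (-1.26 to 0.30).

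The remaining 4 genes did not pass the test either. *Il6ra* was at 23.8 and 25.3 CPM in the SE + LEV 6 h mice and 34.1 and 25.2 CPM in the SE + LEV 2 days mice (logFC -0.16 and 0.33), and at 2 days both SE + LEV mice lay above both SE mice. *Lifr* was at 93.0 and 98.6 CPM and at 96.0 and 81.7 CPM (logFC 0.22 and 0.03), and at 6 h both SE + LEV mice lay above both SE mice. *Jak1* was at 125 and 117 CPM and at 123 and 119 CPM (logFC -0.13 and -0.09). *Jak2* was at 49.9 and 53.9 CPM and at 19.3 and 38.3 CPM (logFC -0.02 and 0.31). The 95% intervals of these 4 genes spanned 0 at both times, and the widest were those of *Jak2*, -1.22 to 1.18 at 6 h and -0.89 to 1.51 at 2 days.

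Compared with pre-SE mice, the SE + LEV 6 h mice were higher in *Lif*, *Osmr* and *Socs3*, 3 of 9 genes against 0.315% of all genes. The SE + LEV 2 days mice were higher in these 3 and *Stat3*, 4 of 9 against 2.83%. The logFC of *Socs3* was 6.05 at 6 h (limma adjusted p = 0.0069) and 5.04 at 2 days (adjusted p = 0.0029), and that of *Osmr* was 3.11 (adjusted p = 0.0195) and 3.50 (adjusted p = 0.0032). *Lif* had a logFC of 5.12 (adjusted p = 0.0200) and 5.06 (adjusted p = 0.0060), and *Stat3* 1.26 (adjusted p = 0.225) and 1.70 (adjusted p = 0.0281). None was lower, where 0.00631% and 0.0189% of all genes were. Fewer genes passed at 6 h, here and over all genes, when an SE + LEV 6 h or pre-SE mouse was left out. *Lif* and *Osmr* lost their 6 h calls without any 1 of these mice. *Socs3* lost its call only without SE + LEV 6 h replicate 1, where its logFC was 5.60. At 2 days *Stat3* was lost without SE + LEV 2 days replicate 1 (adjusted p = 0.238) and without either pre-SE mouse (0.162 and 0.119). In a fit of only the groups compared, *Lif* and *Osmr* lost their 6 h call, and all 4 genes lost theirs at 2 days (limma adjusted p 0.060 to 0.149). That fit called 14 of 15851 genes higher at 6 h, against 50 in the fit of all groups, and 0 against 448 at 2 days. *Lif*, with 3 tags in pre-SE mice, lost its 6 h call with a pseudocount of 0.5 or 1 (limma adjusted p = 0.104 and 0.204). With a pseudocount of 1, *Lif* at 2 days (0.0801) and *Osmr* at 6 h (0.0598) were also lost. *Stat3* at 2 days was lost with no mean-variance trend (0.0576). With the choroid plexus covariate *Il6ra* was also higher at 2 days (logFC 1.14, adjusted p = 0.0358), where 538 of all genes were called higher, against 448 without the covariate.

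The SE + LEV 2 days mice differed from each other. Replicate 1 was the higher in 8 of the 9 genes, *Jak2* being the exception, while 44.7% of all genes were higher in that mouse. The ratio between these mice was 3.85 for *Lif*, 3.46 for *Socs3*, 2.07 for *Osmr* and 2.06 for *Stat3*. *Clcf1* was at 28.0 and 1.93 CPM and *Timp1* at 181 and 25.0 CPM in the same mice. Replicate 1 also had the higher sum of choroid plexus markers, given above, and of markers of blood monocytes and macrophages, 78.2 against 23.0 CPM, and their part in the difference was not tested.

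The other ligands, *Osm* and *Clcf1*, and the STAT3 targets were compared in the same way. *Osm* was at 0.80 and 0.19 CPM in the SE + LEV 6 h mice and 0.50 and 0.04 CPM in the SE + LEV 2 days mice, below both SE mice at each time (logFC -1.86 and -1.61, limma adjusted p = 1.0 for both). *Clcf1* was at 0.93 and 1.52 CPM in the SE + LEV 6 h mice, below both SE 6 h mice, and at 2 days its SE + LEV mice lay on both sides of the SE mice (logFC -1.39 and -1.12, adjusted p = 1.0 for both). Of the 22 STAT3 targets none passed the adjusted threshold, and at an unadjusted p under 0.05 6 were lower at 6 h and 4 at 2 days (3.42% and 1.39% of all genes), with none higher (1.16% and 1.31%). Both SE + LEV mice lay below both SE mice in 11 of 22 targets at 6 h and in 5 of 22 at 2 days, beside 13.4% and 12.2% of all genes. The median logFC was -0.39 at 6 h and -0.50 at 2 days, and 0.04 for all genes at each time. Without SE + LEV 2 days replicate 2 the median of the targets at 2 days was 0.08, without SE + LEV 2 days replicate 1 it was -1.46, and with a mouse left out at 6 h it was -0.69 to -0.21. *Fos* was at 115 and 32.2 CPM at 6 h and 24.1 and 14.7 CPM at 2 days with LEV, with a logFC of -2.04 (limma adjusted p = 0.61) and -2.06 (adjusted p = 1.0).

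Between the SE 6 h and SE 2 days mice none of the 9 genes passed the adjusted threshold, where 3.14% of all genes were higher and 1.11% lower at 2 days. At an unadjusted p under 0.05, *Lif* and *Stat3* were higher and *Jak2* was lower at 2 days, with a logFC of 2.07 (limma adjusted p = 0.150), 0.78 (adjusted p = 0.246) and -1.26 (adjusted p = 0.226), beside 12.8% and 7.29% of all genes. With the choroid plexus covariate *Jak2* passed (logFC -1.61, adjusted p = 0.0101). Among the STAT3 targets *Cd44*, *Gfap*, *Serpina3n* and *Vim* were higher at 2 days than at 6 h, with a logFC of 2.09 (*Serpina3n*) to 3.16 (*Cd44*).

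Ordered by the mean CPM of the groups, *Il6* ran from pre-SE through SE + LEV 2 days, SE + LEV 6 h and SE 2 days to SE 6 h, and the mice of SE + LEV 2 days and SE + LEV 6 h overlapped, as did those of SE 2 days and SE 6 h. *Lif* ran from pre-SE through SE 6 h, SE + LEV 2 days and SE + LEV 6 h to SE 2 days, where the 3 middle groups overlapped and the ends stood apart. In *Osmr*, *Stat3*, *Socs3*, *Jak1* and *Il6ra*, pre-SE was the lowest group and stood apart from the next, and all later neighbours in the order overlapped. In *Lifr* every pair of neighbours overlapped. In *Jak2* the gap between neighbours lay between the 3 lowest groups (SE 2 days, pre-SE and SE + LEV 2 days) and both 6 h groups. Of these, SE 6 h reached down to 28.9 CPM and so overlapped pre-SE and SE + LEV 2 days, but not SE 2 days.

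Across the 4 fold changes to pre-SE (SE and SE + LEV at both times, which share the pre-SE mice), the genes closest to each of 4 members were sought among 14213 genes with a mean of at least 1 CPM, by the root mean square difference of the logFC values. For *Il6* they were *Ptgs2*, which encodes cyclooxygenase-2 (difference 0.376), *Lce1g* (0.623) and *Gadd45g* (0.625). *Ptgs2* had a logFC of 3.80 and 3.92 in SE mice and 2.00 and 0.92 in SE + LEV mice at 6 h and 2 days, and *Il6* 4.13, 3.88, 1.32 and 0.93. For *Osmr* they were *Tnf* (0.240), *C5ar1* (0.277) and *E030010A14Rik* (0.479). *Socs3* had its nearest genes further away, *Plaur* (0.692), *Lcn2* (0.692) and *Ccl2* (0.894). For *Stat3* they were *2310014H01Rik* (0.121), *Myd88* (0.142) and *Socs1* (0.152). The likeness is a description over these 4 values.

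Markers of neurons, glia and blood cells moved between the groups as well, and their part in the values above was not tested. The 9 neuronal markers summed to 3635 to 4357 CPM before SE, 2498 to 3543 CPM at 6 h and 2487 to 3041 CPM at 2 days. With LEV they summed to 3344 to 4047 CPM at 6 h and 2541 to 2944 CPM at 2 days. At 2 days all 9 had a lower estimate than before SE, with and without LEV, and none passed the test. At 6 h the summed level of 7 microglial markers was 273 to 292 CPM, below the 372 to 439 CPM of pre-SE mice, with *P2ry12* and *Tmem119* lower, while *Il6*, *Lif*, *Osmr* and *Socs3* were higher. The 7 astrocyte markers summed to 2187 to 2656 CPM at 6 h, overlapping the 2317 to 2477 CPM before SE, and none of the 7 passed the test. At 2 days microglial markers summed to 853 to 999 CPM, with *Aif1* among those higher. Of the 7 microglial markers, 2 had a lower estimate, 1 of them with both SE mice below both pre-SE mice (25.6% of all genes). Astrocyte markers summed to 3575 to 4985 CPM at 2 days, with *Gfap* and *Aqp4* higher. *Gfap* alone went from 246 and 230 CPM before SE to 2282 and 3642 CPM. The rise of the sum lay in *Gfap*, and the rest of the sum was lower than before SE. In 3 of the 7 astrocyte markers both SE mice lay below both pre-SE mice. The 4 monocyte and macrophage markers tested of 6 summed to 5.88 to 6.82 CPM before SE, 9.59 to 12.4 CPM at 6 h and 39.4 to 67.2 CPM at 2 days, where *Plac8* and *Lyz2* were higher. The 3 neutrophil markers tested of 5 summed to 0.59 to 1.62 CPM before SE and 6.23 to 6.70 CPM at 6 h, with *Mpo* higher, and the 6 endothelial markers to 73.7 to 76.0 CPM and 114 to 175 CPM, with *Cdh5* higher and 2 of 6 markers with both SE mice below both pre-SE mice (31.3% of all genes). The 5 oligodendrocyte markers summed to 4203 to 4774 CPM before SE, 2939 to 5716 CPM at 6 h, 1560 to 2339 CPM at 2 days and 2778 to 4049 CPM in the SE + LEV 2 days mice, and none of the 5 passed the test. The 2 red blood cell markers tested of 5, *Hbb-b1* and *Hbb-b2*, summed to 22.6 to 23.8 CPM before SE, 8.73 to 12.5 CPM at 6 h and 3.58 to 7.21 CPM at 2 days, where both were lower. With LEV at 2 days, the microglial sum was 925 to 1141 CPM and the astrocyte sum 4062 to 4457 CPM, in the range of or above the SE 2 days mice. In none of the lists with a tested gene was a defining marker at 0 in all mice.

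**Figure D4:**
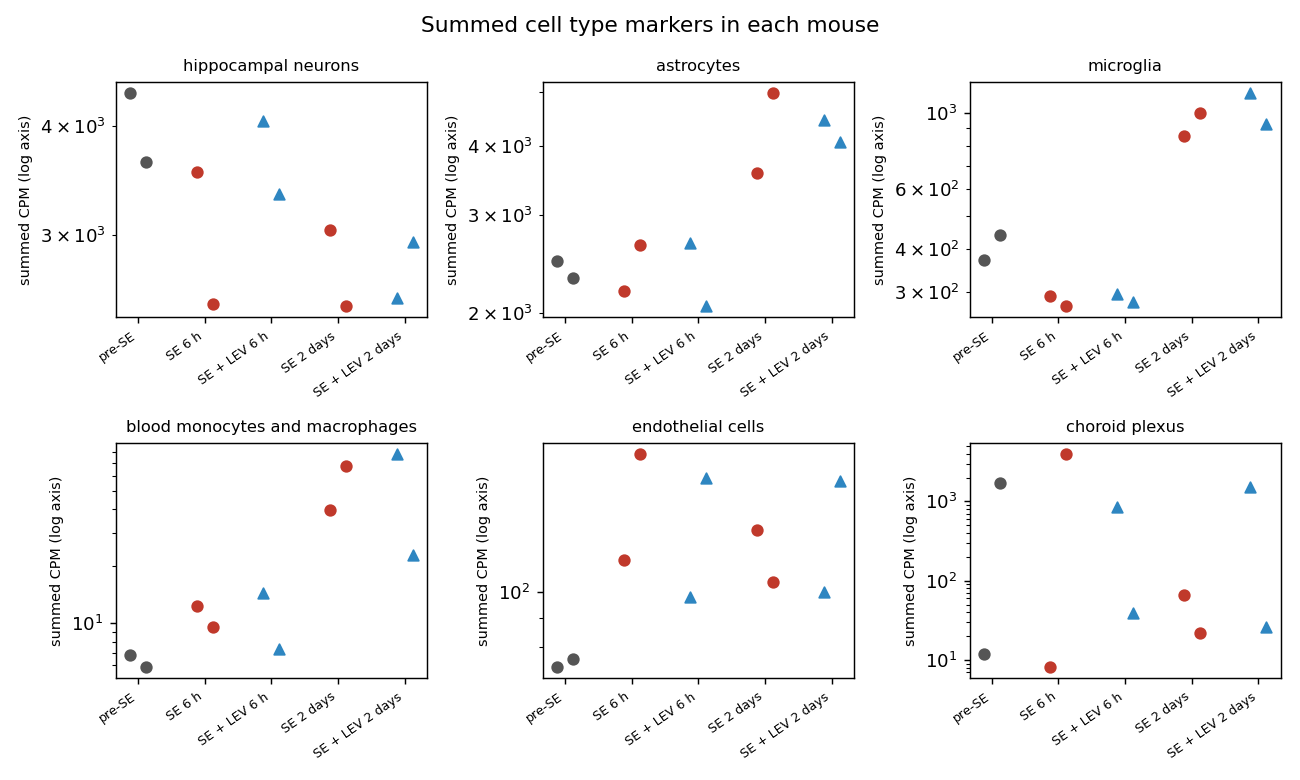
Summed CPM (vertical axes, log scale) of the markers of 6 cell types in the 2 mice of each of the 5 groups (grey, pre-SE, red, SE, blue triangles, SE + LEV). Microglial sums are 273 to 292 CPM in SE 6 h mice and 853 to 999 CPM in SE 2 days mice, and the choroid plexus sum ranges from 8.21 to 3985 CPM with a wide gap between the mice of most groups.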

How the data were processed

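Cap analysis of gene expression (CAGE) libraries of whole hippocampus from 10 mice were used as 1 table of CPM values per gene (tag counts scaled to library size), deposited by the authors. By the study's methods and the submitters' processing notes, RNA with an integrity number over 7 was used, tags were mapped to mm9 with BWA 0.7.17 and then HISAT2 2.0.5, clusters were called with RECLU and kept at 0.1 CPM or more, at an IDR under 0.1 and up to 200 bp, and bedtools 2.12.0 (90% overlap) and edgeR 3.22.5 were used. How clusters were summed to genes, and whether by strand, is not given in the sources used here. The smallest steps of the CPM values gave tag totals of 10540698 to 51710968 per library, with 100% of values whole within the rounding of 0.005 CPM. As 1 tag was worth 0.0193 to 0.0949 CPM, the steps are near the rounding in the deepest libraries, and tag totals and tag counts are inferred.

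Genes that reached 0.1 CPM in 2 or more libraries (15851 of 15900) were tested as log2(CPM + 0.1) with limma 3.58.1 in R 4.3.3, in 1 fit over the 5 groups with a mean-variance trend. The test was two-sided and moderated, with Benjamini-Hochberg adjustment over all genes and a threshold of 0.05. A logFC on this scale understates the change of low genes. On simulated data for SE 6 h against pre-SE (15848 genes), 58.2%, 98.5% and 100% of genes changed by a logFC of 1, 2 and 3 were recovered. There 8 unchanged genes were called. The simulated mice varied around the pre-SE level with 1 fixed spread for all genes, and genes of low level were not changed. The shares may therefore not hold for the real mice, where *Jak2* differed 3.31-fold between the SE 6 h mice. Groups came from the labels, and animals of different groups share only a replicate number. The genes, lists and tests were chosen with earlier results of these data known. Some listed genes are not reported here by name. The genes named are the members, listed pathway genes that passed (by logFC, up to 5 per list and comparison), genes at 0 in all libraries (none), and the 3 genes most like *Il6*, *Osmr*, *Socs3* and *Stat3*; other called targets and markers were named after their values were seen. Alternatives were pseudocounts of 0.01, 0.5 and 1, no filter and a filter of 1 CPM, median-of-ratios rescaling, a replicate block, no trend, only the groups compared, each mouse left out and a choroid plexus covariate.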

Additional observations from a re-analysis of the deposited data

How the results depend on the processing

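The counts of the 9 genes called higher or lower in the 8 comparisons stayed within 1.5 times the value given in 310 of 320 recomputations. Only the counts of genes higher than pre-SE were above 0 (4, 5, 3 and 4). The rest were 0 from the outset, and a repeated 0 was taken as the same, so the total says little about stability. In SE + LEV 6 h against pre-SE 3 genes were called higher, and 1 with a pseudocount of 1 or with only the groups compared. Over all genes 50 were called higher there, and 14 in each of these fits. With only the groups compared, SE + LEV 2 days against pre-SE went from 4 genes to 0, and SE 2 days against SE 6 h from 0 to 1 (*Lif*). Over all genes these counts went from 448 to 0 and from 498 to 560. With the choroid plexus covariate, SE 6 h against pre-SE went from 4 to 7 genes, and the genes lower at 2 days than at 6 h from 0 to 1 (*Jak2*). Over all genes these counts went from 437 to 541 and from 176 to 355. The cause was not tested. With a mouse left out, 3 to 5 genes were higher for SE 6 h against pre-SE, 4 to 5 for SE 2 days, 0 to 3 for SE + LEV 6 h and 3 to 4 for SE + LEV 2 days, and 0 to 0 in every other comparison or direction. A group left with 1 mouse is assumed to vary like the others, and the calls over all genes also fell in most such fits.

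The replicate number was entered as a block, although the mice of different groups share only a number (correlation of deviations -0.44 to 0.34 over 7 comparisons). The block gave the same counts, 4 at 6 h, 5 at 2 days, 3 and 4 in SE + LEV mice against pre-SE, and 0 elsewhere, and changed no member's call. It moved *Clcf1* (adjusted p = 0.0573) and *Steap4* (0.0553) at 6 h and *Stat2* (0.0519) and *Junb* (0.0545) at 2 days just over the threshold of 0.05.

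Signs were followed for the members in the comparisons described, for the listed genes called after SE in SE against pre-SE, and for *Osm*, *Clcf1* and *Fos* in SE + LEV against SE. Those that turned had not passed the test. Rescaling by median of ratios turned *Lifr* to 0.13 for SE 6 h against pre-SE and -0.022 for SE + LEV 2 days against SE 2 days, and the covariate turned *Jak2* to -0.29 for SE 2 days against pre-SE. With a mouse left out, the logFC ranged over both signs in these cases. For SE + LEV 6 h against SE 6 h it was -0.52 to 1.36 (*Lif*), -0.56 to 0.24 (*Il6ra*), -0.46 to 0.18 (*Stat3*), -1.07 to 0.26 (*Socs3*), -0.29 to 0.026 (*Jak1*) and -0.88 to 0.84 (*Jak2*). For SE 6 h against pre-SE it was -0.014 to 0.010 (*Lifr*), -0.76 to 0.11 (*Ptpn6*) and -0.0014 to 0.35 (*Serpina3n*). For SE 2 days against pre-SE it was -0.14 to 0.30 (*Lifr*) and -0.42 to 0.42 (*Jak2*). For SE + LEV 2 days against SE 2 days it was -0.19 to 0.25 (*Lifr*), -0.89 to 0.15 (*Osmr*), -1.002 to 0.042 (*Stat3*), -1.78 to 0.0032 (*Socs3*) -0.18 to 0.80 (*Jak2*) and -3.02 to 0.77 (*Clcf1*). For SE + LEV 2 days against pre-SE it was -0.0057 to 0.23 (*Lifr*) and -0.18 to 0.80 (*Jak2*). Tests on counts with edgeR and DESeq2 were planned and not run, because the table holds CPM and its tag counts could only be inferred from rounded values. Depth limits *Il6* and *Osm* in pre-SE and SE + LEV mice and *Lif* in pre-SE mice, which rest on few or no tags.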
